A study of Mus musculus with 6 samples.

Results

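Genomic imprinting was followed in the embryonic mouse brain through 40 genes whose expression is known to depend on the parent of origin. They were taken by gene symbol from a table of 53801 genes, and all 40 were found. They lie in 17 imprinted loci on 11 chromosomes, and 24739 genes of the table, including all 40, held enough counts to be tested. RNA-seq had been made from whole brain at embryonic stage E16.5 in 3 Bahd1-/- embryos (Bahd1-KO) and 3 Bahd1+/+ embryos (Bahd1-WT), all C57BL/6 and without any other treatment. The null allele was carried in every cell of the body and came from crosses of heterozygous parents, so a difference could arise outside as well as inside the brain. The embryos were inbred, so gene counts give the sum of both parental alleles and do not tell which allele was read. In whole tissue, fewer cells of a type and less RNA per cell cannot be told apart.

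In an imprinted gene, DNA methylation laid down in the egg or the sperm at a control region marks the alleles, and the gene is then read mainly from the maternal or mainly from the paternal copy. The marks are kept in the embryo by proteins such as ZFP57, TRIM28 and DNMT1, and long non-coding RNAs of several loci silence their neighbours in cis. Many paternally expressed genes promote growth, many maternally expressed genes restrain it, and a number of them act in the hypothalamus and in developing neurons. BAHD1 is a chromatin protein that takes part in the formation of repressed chromatin, and the comparison of Bahd1-KO with Bahd1-WT brains asks whether its loss alters the expression of genes at this stage.

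The promoters of 6 members that come up repeatedly among the results are shown first. RefSeq start sites on GRCm38.p6 were available for 33 of the 40 genes, with no entry for Sgce, Trappc9, Peg10, Impact, Peg13, Cdkn1c and Rtl1. Each window covers 250 bases before and 50 bases after a start and is written 5′ to 3′ on the gene's strand, with CG dinucleotides, the sites of DNA methylation, in capitals. Peg3 (chr7:6730370-6730669, minus strand) and Usp29 (chr7:6730333-6730632, plus strand) are shown because they are transcribed in opposite directions from starts 164 bases apart, so that their windows share 263 bases. Nnat (chr2:157559828-157560127, plus strand) and Magel2 (chr7:62376729-62377028, plus strand) are shown as genes with much lower levels in 1 embryo. Mest (chr6:30737800-30738099, plus strand; of 3 windows, the first of the 2 with 17 CG dinucleotides) and Plagl1 (chr10:13090582-13090881, plus strand) are shown as genes with higher levels in the same embryo.
Peg3: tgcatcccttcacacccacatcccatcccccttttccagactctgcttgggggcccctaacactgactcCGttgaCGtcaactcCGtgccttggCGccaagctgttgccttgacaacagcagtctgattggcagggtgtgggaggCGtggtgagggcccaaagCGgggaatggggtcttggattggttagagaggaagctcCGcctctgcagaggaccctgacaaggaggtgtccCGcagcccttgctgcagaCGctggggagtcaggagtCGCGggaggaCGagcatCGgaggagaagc
Usp29: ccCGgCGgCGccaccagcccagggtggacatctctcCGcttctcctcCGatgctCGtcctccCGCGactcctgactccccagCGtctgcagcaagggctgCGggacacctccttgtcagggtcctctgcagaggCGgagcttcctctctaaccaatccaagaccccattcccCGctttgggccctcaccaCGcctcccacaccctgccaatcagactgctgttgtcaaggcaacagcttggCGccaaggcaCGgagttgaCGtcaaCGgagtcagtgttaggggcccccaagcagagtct
Nnat: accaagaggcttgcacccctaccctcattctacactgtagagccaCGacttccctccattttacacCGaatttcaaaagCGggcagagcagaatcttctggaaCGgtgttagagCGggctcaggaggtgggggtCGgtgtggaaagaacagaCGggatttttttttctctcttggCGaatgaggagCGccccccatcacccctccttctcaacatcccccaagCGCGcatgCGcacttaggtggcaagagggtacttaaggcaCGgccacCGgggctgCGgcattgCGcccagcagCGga
Magel2: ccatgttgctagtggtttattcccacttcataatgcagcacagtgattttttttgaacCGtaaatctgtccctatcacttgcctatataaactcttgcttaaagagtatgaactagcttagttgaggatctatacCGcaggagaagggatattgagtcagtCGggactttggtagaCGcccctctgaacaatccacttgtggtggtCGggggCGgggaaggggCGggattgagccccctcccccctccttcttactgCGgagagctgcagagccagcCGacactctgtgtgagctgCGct
Mest: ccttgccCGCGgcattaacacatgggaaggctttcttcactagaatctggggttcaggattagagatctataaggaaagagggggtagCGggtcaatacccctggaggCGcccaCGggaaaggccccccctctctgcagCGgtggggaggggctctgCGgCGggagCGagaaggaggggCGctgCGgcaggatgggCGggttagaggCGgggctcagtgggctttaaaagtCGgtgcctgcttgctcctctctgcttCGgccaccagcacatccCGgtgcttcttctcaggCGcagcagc
Plagl1: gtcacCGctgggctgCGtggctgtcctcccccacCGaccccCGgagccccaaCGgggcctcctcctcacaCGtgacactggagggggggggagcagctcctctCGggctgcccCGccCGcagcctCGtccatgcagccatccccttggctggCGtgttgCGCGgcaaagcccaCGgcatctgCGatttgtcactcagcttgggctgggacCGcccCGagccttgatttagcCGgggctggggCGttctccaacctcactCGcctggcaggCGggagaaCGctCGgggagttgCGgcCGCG
The 6 windows held 13 (Peg3), 17 (Usp29), 17 (Nnat), 10 (Magel2), 17 (Mest) and 26 (Plagl1) CG dinucleotides. Over all 48 windows of the imprinted genes the median was 15.0, against 7 over the 32851 windows of all genes. The 6-letter motif TGCCGC, which ZFP57 is known to bind when methylated, was searched on both strands. It was present in 12 of 48 windows of imprinted genes (25%) and in 11.6% of all windows. The 12 windows belonged to 11 genes, since 2 overlapping windows of Mest both held it. The motif itself contains a CG, and the 2 shares were not compared at equal CG content. The higher share is therefore not read as particular to imprinted genes. Among the 6 promoters shown, the motif occurred 1 time in Nnat, 2 times in Mest and 1 time in Plagl1, always on the reverse strand, and not in the Peg3, Usp29 and Magel2 windows. These counts describe the letters of the promoters and hold no measurement of methylation.

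The libraries held between 61.7 and 91.8 times 1e6 counts. Levels are given as counts per 1e6 counts (CPM) on library sizes scaled by TMM (trimmed mean of M-values), and as that value per kilobase of exon (RPKM) where genes are compared with each other. Counts of Bahd1 itself were 2, 10 and 6 for replicates 1 to 3 of Bahd1-KO, against 1971, 3102 and 3470 for those of Bahd1-WT, so every library carried its labelled genotype. Its log2 fold change (Bahd1-KO over Bahd1-WT) was -8.40 (SE 0.606, edgeR quasi-likelihood test with Benjamini-Hochberg adjusted p = 0.0462). Bahd1-KO replicate 3 stood apart from the other 5 embryos. Its TMM factor was 0.684, and untailed and ribosomal RNAs summed to 663959.6 CPM in it, against 2399 to 5687 CPM elsewhere. Its TMM-scaled library size was 54 times 1e6, below its 78.9 times 1e6 counts. Its CPM values thus add up to more than 1e6, and that sum is not a share of its library.

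Tissue markers also differed in Bahd1-KO replicate 3. All 10 lung markers were highest in that embryo and summed to 2429 CPM, against 0.855 to 13.6 CPM in the other 5. None of the 10 was at 0 in it, and Sftpc, a surfactant protein of the lung, had 44670 counts there. Markers of the meninges and connective tissue (8 of 10 highest there) summed to 3069.5 CPM against 468 to 535 CPM, skeletal muscle markers (9 of 10) to 83.7 against 2.95 to 13.5 CPM, and endothelium markers (8 of 10) to 915 against 288 to 345 CPM. In the first list, Foxc1 (7.47 against 11.7 to 17.4 CPM) and Foxc2 (0.908 against 2.32 to 3.74 CPM) were instead lowest there. Among endothelium markers, Slco1c1 was lowest there (15.2 against 29.1 to 60.5 CPM), and Cldn5 lay within the range of the others (9.25 against 8.09 to 33.1 CPM). The muscle gene Actn3 also lay within that range. Neuron markers summed to 2449 CPM in it against 8955 to 10999.7 CPM, with all 10 detected in every embryo and 1 of 10 highest in it. That gene was Snap25, a protein of synaptic vesicle release (909.8 CPM against 154 to 285 CPM), while Dcx, a microtubule protein of migrating neurons, had 33.0 CPM against 1865 to 3713 CPM, and Syt1 and Rbfox3 lay within the range of the others. The part of these features in the levels of the imprinted genes was not tested. Results are therefore given with and without Bahd1-KO replicate 3. In Bahd1-KO replicate 2, the placenta markers summed to 12.1 CPM, against at most 0.198 CPM in the others. The 13.6 CPM of lung markers named above was also that of Bahd1-KO replicate 2, against 0.909 to 2.32 CPM in Bahd1-WT. Bahd1-WT replicate 3 was highest for liver genes such as Afp (23.2 against 0.0340 to 2.61 CPM) and Apob (6.30 against 0.250 to 0.315 CPM). Of the 10 liver markers, 3 were instead highest in Bahd1-KO replicate 3, and Ttr was highest in Bahd1-KO replicate 2.

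**Figure D1:**
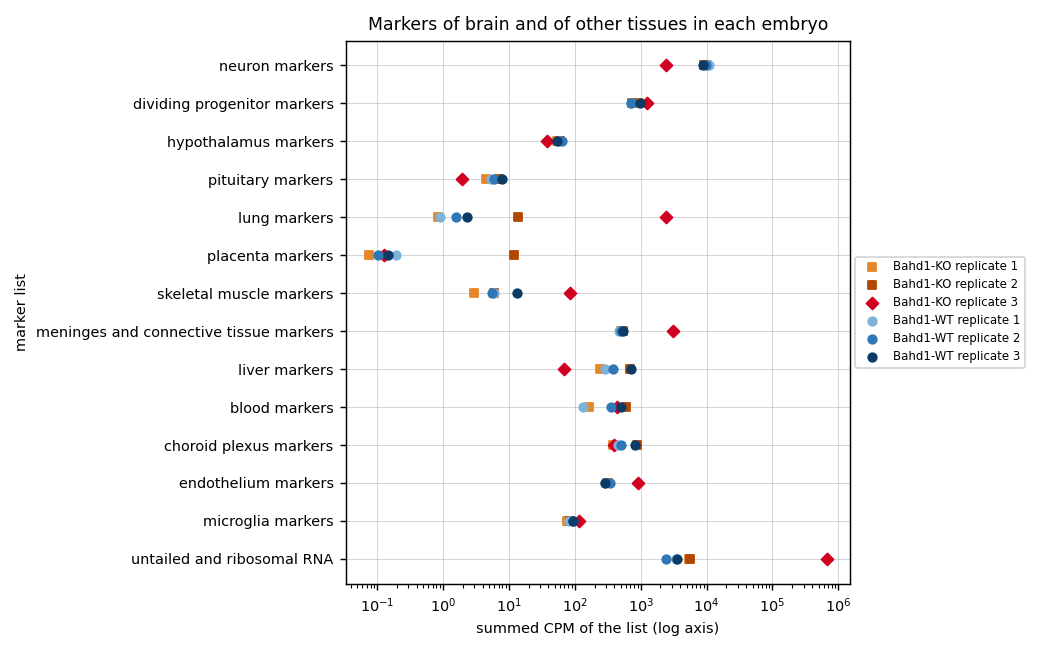
Summed CPM (log axis) of marker lists for brain cells, for other tissues and for untailed RNA, with 1 point per embryo. Bahd1-KO replicate 3 (red diamonds) lies far to the right of the other embryos for lung markers (2429 CPM) and untailed and ribosomal RNA (663959.6 CPM), and to the left for neuron markers (2449 CPM).

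Many of the imprinted genes had high counts in the E16.5 brain. In Bahd1-WT embryos, 38 of the 40 had a mean of at least 1 CPM, beside 14348 of the 24739 genes tested. Of the 40, 18 (45.0%) reached 100 CPM, against 9.75% of all genes tested. CPM is not divided by exon length, so these shares favour long transcripts. Per length, Nnat, which encodes a small membrane proteolipid of developing neurons, was the highest of the 40, at 1539.7 ± 129 RPKM (SD, n = 3). It was followed by Snrpn, a core protein of the spliceosome, at 126 ± 15.6 RPKM, by Gnas, the alpha subunit of the stimulatory G protein, at 88.7 ± 11.8 RPKM, and by Ndn, a MAGE family protein of neurons, at 87.5 ± 13.7 RPKM. The Nnat values of the 3 embryos lay well above those of any other member, whereas Gnas and Ndn did not differ beyond their spread. Snrpn shares 27.28% of its exon bases with other genes on the same strand, among them Snurf, so that its count depends on how shared reads were assigned.

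The next levels per length were 84.0 ± 3.30 RPKM for Peg13, a long non-coding RNA inside an intron of Trappc9, which lay within the spread of Ndn, and 67.6 ± 17.2 RPKM for Inpp5f, an inositol phosphatase. Meg3, the maternally expressed long non-coding RNA of the Dlk1-Dio3 locus, stood at 67.2 ± 13.7 RPKM, within the spread of Inpp5f. At the other end of the order were Rtl1, a retrotransposon-derived protein (0.347 ± 0.0204 RPKM), Kcnq1ot1, the antisense long non-coding RNA of the Kcnq1 locus (0.246 ± 0.0683 RPKM over an annotated exon of 93092 bases), and 2 genes with few counts. Slc22a18, a transporter-like protein, had 11, 16 and 39 counts in Bahd1-WT, and Phlda2, a regulator of placental growth, had 2, 5 and 2 counts. Values of these latter genes carry a large counting error. Across the 40 genes, the coefficient of variation over the 3 Bahd1-WT embryos had a median of 18.9%.

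**Figure D2:**
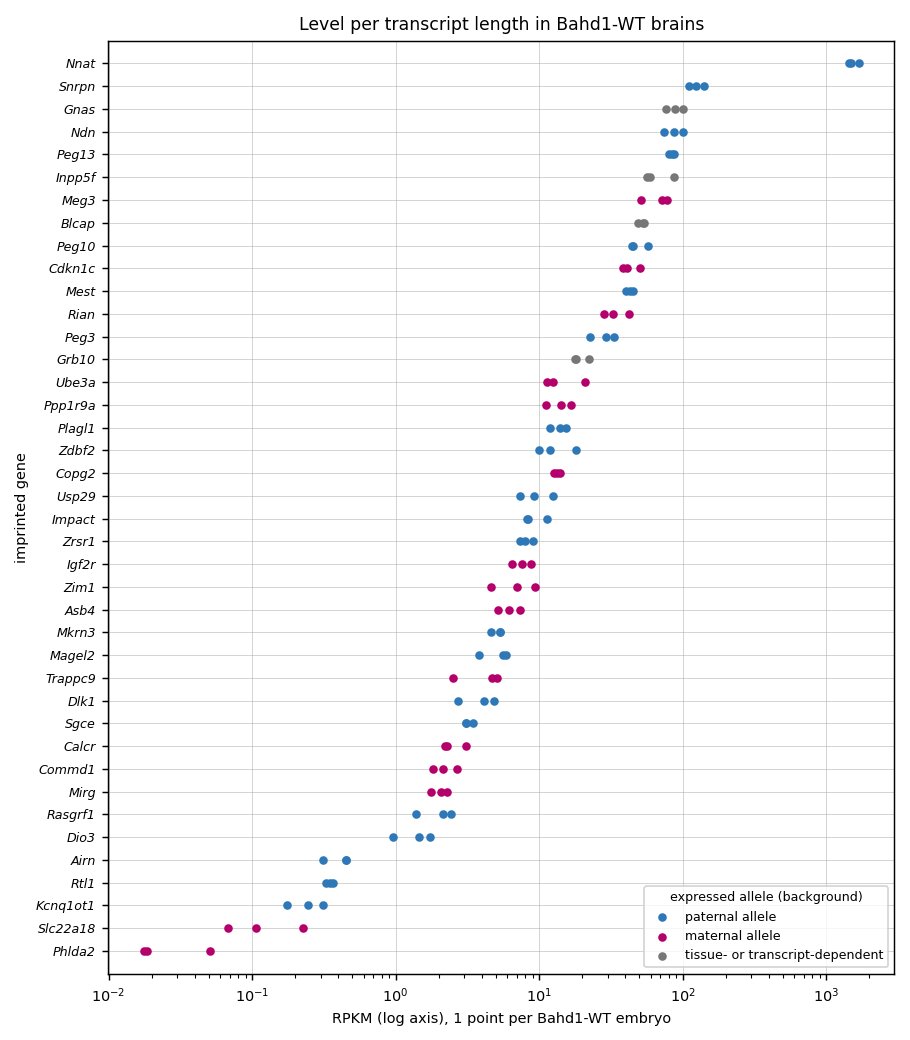
RPKM (log axis) of the 40 imprinted genes in the 3 Bahd1-WT brains, with 1 point per embryo and coloured by the allele that is known to be expressed. Nnat lies at the top, at a mean of 1539.7 RPKM, and Phlda2 at the bottom, at 0.0290 RPKM. The highest maternally expressed gene is Meg3 (67.2 RPKM) and the lowest paternally expressed gene is Kcnq1ot1 (0.246 RPKM).

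None of the 40 imprinted genes differed between Bahd1-KO and Bahd1-WT brains at an adjusted p below 0.05 in the edgeR quasi-likelihood test (0 of 40; background 0.00404% of 24739 genes, which was Bahd1 alone). Their Benjamini-Hochberg adjusted p values in edgeR ranged from 0.696 to 0.995. DESeq2 called 0 of the 40 as well (background 0.0323%), as did limma-voom with sample weights. At an unadjusted p below 0.05, edgeR passed 1 of 40, Airn, with a higher value (background 4.67% in all, 4.51% higher and 0.166% lower), and DESeq2 passed 3 of 40 (background 5.12%), namely Airn, Kcnq1ot1 and Mest. Without Bahd1-KO replicate 3, edgeR again called 0 of 40 (background 0.0171% of 23334 genes), with 0 at an unadjusted p below 0.05 (background 1.48%).

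The fold changes were spread around 0 in both directions. Of the 40 genes, 22 were fitted higher in Bahd1-KO and 18 lower. Their log2 fold changes had a median of 0.02, beside 0.06 over all genes tested. Without Bahd1-KO replicate 3 there were 21 higher and 19 lower values and a median of 0.04, beside -0.01 over all genes. The 21 paternally expressed genes had 10 higher and 11 lower values (median -0.16), and the 15 maternally expressed genes 11 higher and 4 lower (median 0.10). Without that embryo, the medians were -0.03 for the paternally and 0.13 for the maternally expressed genes. The standard deviation of the 40 log2 fold changes went from 0.78 with 6 embryos to 0.24 with 5.

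The precision of these values bears on what could be seen. The standard error of a member's log2 fold change had a median of 0.48 and lay between 0.22 (Copg2) and 1.08 (Phlda2). Without Bahd1-KO replicate 3 the median was 0.24. Fitted log2 differences of up to 2.32 (Airn) did not pass the adjusted threshold, so small changes were not detectable with 3 embryos per genotype.

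**Figure D3:**
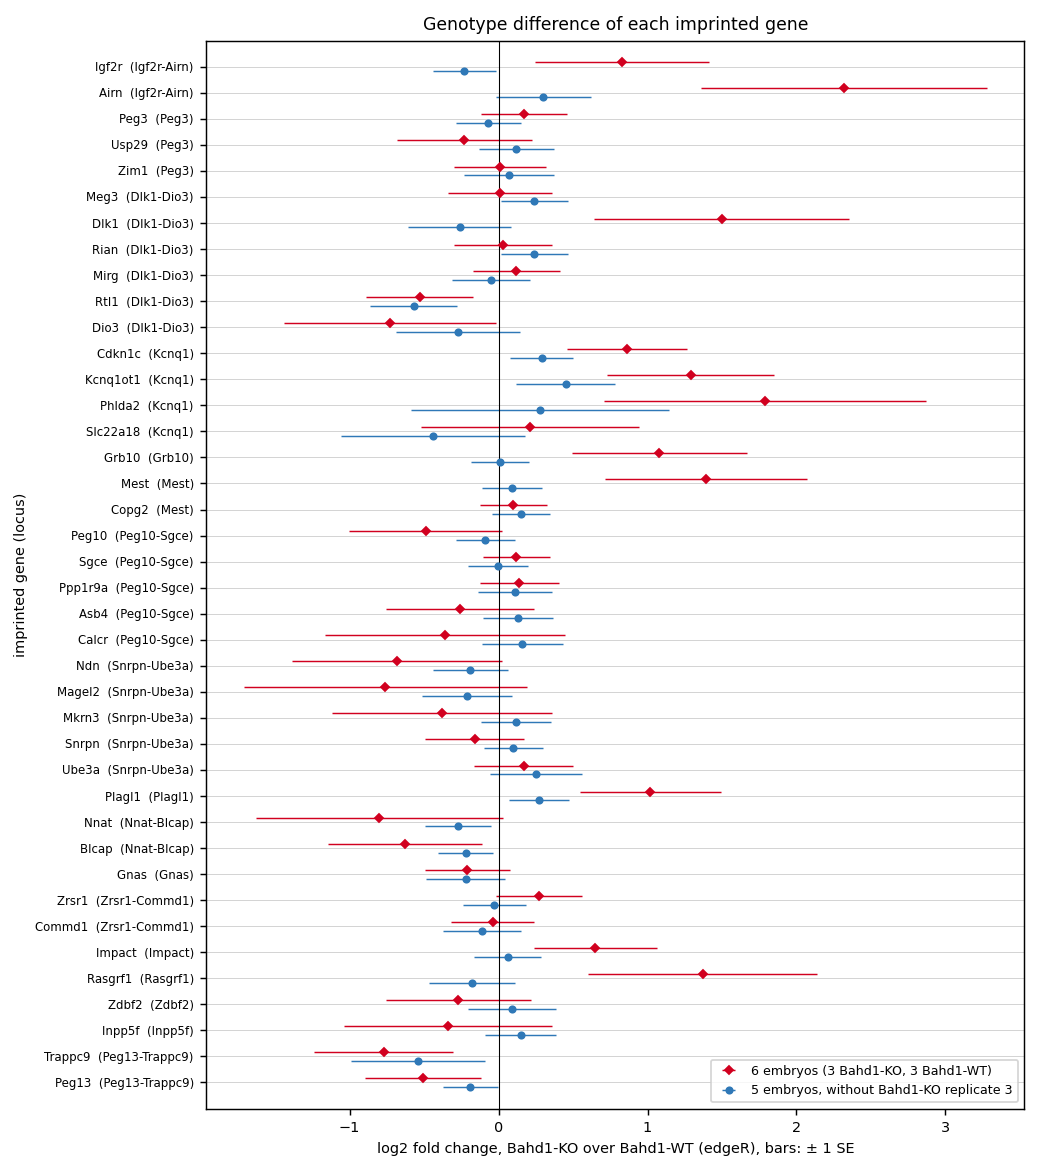
Log2 fold change (Bahd1-KO over Bahd1-WT, edgeR) of each imprinted gene, ordered by locus, with bars of 1 standard error, from all 6 embryos (red) and from 5 embryos without Bahd1-KO replicate 3 (blue). The red values run from -0.80 (Nnat) to 2.32 (Airn) and the blue ones from -0.57 (Rtl1) to 0.45 (Kcnq1ot1), and 0 of 40 genes passed the adjusted threshold in either fit.

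A full separation of the genotypes, with all Bahd1-KO values on the same side of all Bahd1-WT values, was seen for 3 of 40 imprinted genes (background 6.71%). All 3 had the lower values in Bahd1-KO (background 2.24% for that direction, and 4.47% for higher values). Genotypes separated with 6 embryos must stay separated when an embryo is left out, so smaller sets can only add genes. Without Bahd1-KO replicate 3 there were 3 such genes, all lower (background 10.7% in either direction, 4.35% for lower and 6.33% for higher values). With 5 embryos in place of 6, there were 7 such genes without Bahd1-KO replicate 1 (background 16.1%), 12 without Bahd1-KO replicate 2 (background 36.9%), 8 without Bahd1-WT replicate 1 (background 30.2%), 3 without Bahd1-WT replicate 2 (background 9.30%) and 6 without Bahd1-WT replicate 3 (background 11.8%). The 3 genes are Rtl1, Blcap and Peg13, and none passed the adjusted test.

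Rtl1 (chr12:109589193-109600330, minus strand, GRCm38), a protein derived from a retrotransposon and read from the paternal allele, had 1.25, 1.74 and 1.58 CPM in Bahd1-KO and 2.07, 2.32 and 2.23 CPM in Bahd1-WT replicates 1 to 3. The lowest values were thus those of the Bahd1-KO embryos, with Bahd1-KO replicate 3 in the middle of them. The log2 fold change was -0.53 (SE 0.358, edgeR quasi-likelihood adjusted p = 0.696), and -0.57 (SE 0.292) without that embryo. These levels rest on 82 to 225 counts. Antisense transcripts with microRNAs overlap 8.12% of its exon bases on the opposite strand.

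Blcap (chr2:157556362-157571274, minus strand), a small membrane protein whose intron holds Nnat, had 129.5, 144 and 31.5 CPM in Bahd1-KO and 148, 163 and 162 CPM in Bahd1-WT. Bahd1-KO replicate 3 was far below the other embryos, while Bahd1-KO replicate 2 came close to the lowest Bahd1-WT embryo. Its log2 fold change was -0.63 (SE 0.517, edgeR quasi-likelihood adjusted p = 0.703), and -0.22 (SE 0.184) without Bahd1-KO replicate 3.

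Peg13 (chr15:72805600-72810324, minus strand) had 328, 373 and 134 CPM in Bahd1-KO and 401, 410.1 and 379.6 CPM in Bahd1-WT. The 3 Bahd1-WT values were close together, and Bahd1-KO replicate 2 lay just below them. Its log2 fold change was -0.51 (SE 0.389, edgeR quasi-likelihood adjusted p = 0.696), and -0.19 (SE 0.183) without Bahd1-KO replicate 3. Trappc9, a subunit of a trafficking complex that surrounds Peg13, had 13, 31.9 and 12.6 CPM in Bahd1-KO and 20, 37.3 and 40.6 CPM in Bahd1-WT. The Trappc9 values of the genotypes overlapped, with both replicates 1 and Bahd1-KO replicate 3 low.

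Much of the spread among the imprinted genes lay in Bahd1-KO replicate 3. It was the highest of the 6 embryos for 16 of 40 genes (background 38.1% of all genes) and the lowest for 17 of 40 (background 36.0%). At 2-fold or more from the mean of the other 5, 12 of 40 were above (30%; background 28.1%) and 14 of 40 below (35.0%; background 24.7%). At 4-fold or more, 6 were above (background 16.6%) and 9 below (background 11.1%). Among genes with at least 1 CPM in Bahd1-WT, 10 of 38 imprinted genes were 2-fold or more above (26.3%; background 15.2%) and 14 of 38 below (36.8%; background 26.6%). With another scaling of the libraries, the counts at 2-fold were 12 and 14 with TMM or DESeq2 factors, 12 and 13 with upper-quartile factors, and 9 and 17 with total counts. Total counts moved the median log2 difference between this embryo and the others from 0.01 (TMM) to -0.65, over genes with a count in this embryo. Over all genes tested the TMM median was -0.07. The counts of the 40 genes together came to 0.733% of the TMM-scaled library size in this embryo and 0.959% to 1.05% in the others. That size was 54 times 1e6 in this embryo, below its 78.9 times 1e6 counts, so the value is not a share of its counts.

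**Figure D4:**
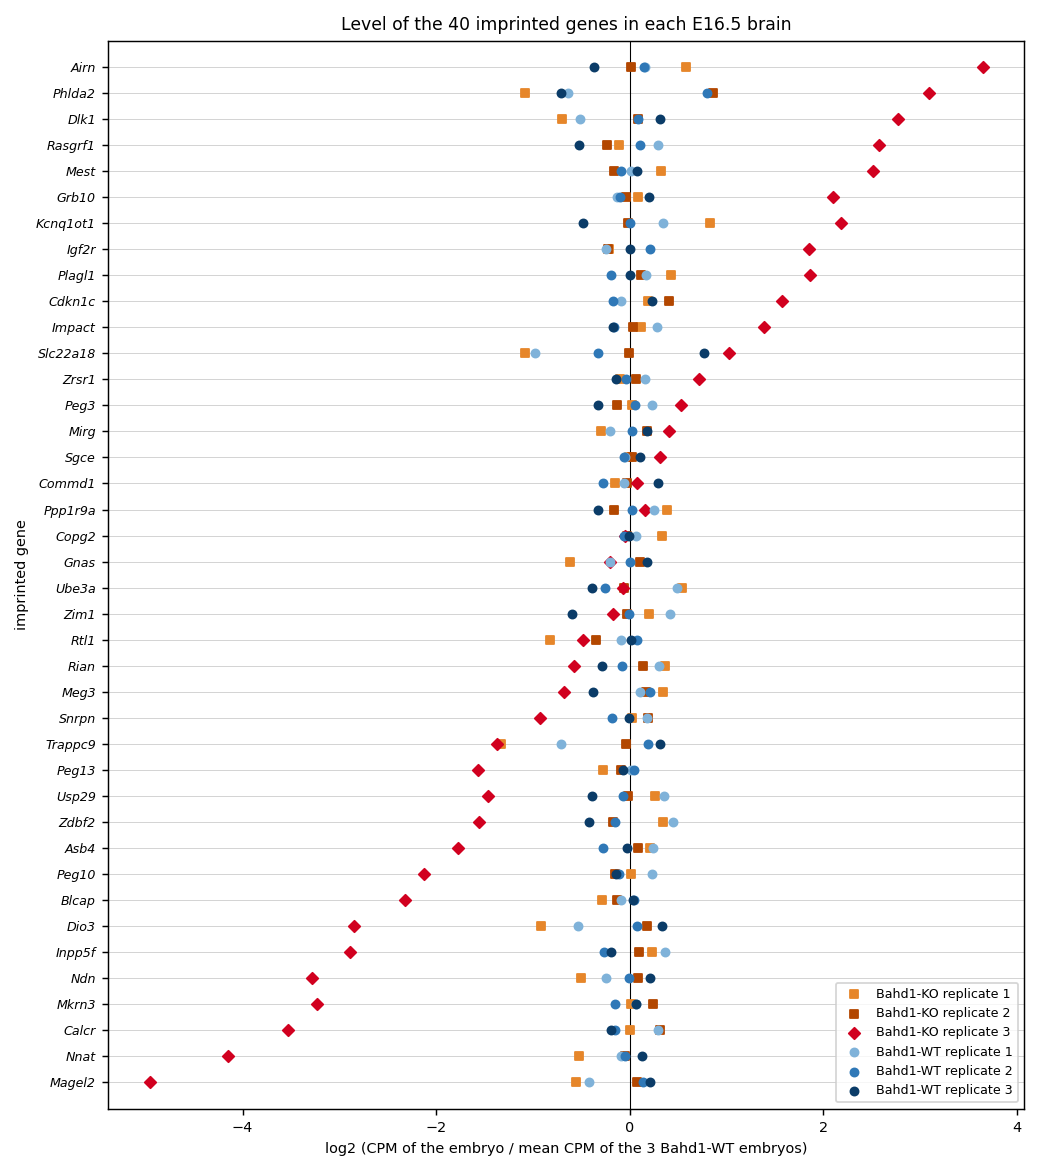
Level of each imprinted gene in each embryo as log2 of its CPM over the mean CPM of the 3 Bahd1-WT embryos, sorted by the value in Bahd1-KO replicate 3 relative to the other 5 embryos. Bahd1-KO replicate 3 (red diamonds) runs from Airn at the top (18.3 CPM) to Magel2 at the bottom (0.760 CPM), and the other Bahd1-KO embryos (squares) lie near the Bahd1-WT embryos (circles), although both are below all Bahd1-WT embryos for Rtl1, Blcap and Peg13.

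Genes of growth control were among those higher in Bahd1-KO replicate 3. Mest (chr6:30723547-30748465, plus strand), a hydrolase-fold protein read from the paternal allele, had 212, 151 and 966 CPM in Bahd1-KO and 170.2, 159 and 178 CPM in Bahd1-WT. The first 2 Bahd1-KO embryos enclosed the Bahd1-WT range, and replicate 3 was 5.55-fold above the mean of the other 5. This gave a log2 fold change of 1.39 (SE 0.678, edgeR quasi-likelihood adjusted p = 0.696), and 0.09 (SE 0.203) without replicate 3. Its promoter, shown above, held the motif 2 times.

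Grb10 (chr11:11930508-12038683, minus strand), an adaptor that restrains insulin and growth factor receptors, had 188, 172 and 761 CPM in Bahd1-KO and 161, 165 and 203 CPM in Bahd1-WT. Apart from replicate 3, the Bahd1-KO values lay inside the Bahd1-WT range, and the log2 fold change without it was 0.01 (SE 0.192). Plagl1 (chr10:13060504-13131694, plus strand), a zinc finger transcription factor that acts on many imprinted genes, had 145, 117 and 394 CPM in Bahd1-KO and 121, 94.1 and 108 CPM in Bahd1-WT. Bahd1-KO replicate 1 also lay above all Bahd1-WT embryos, and replicate 2 lay within their range. For Plagl1 the log2 fold change was 1.02 (SE 0.473, edgeR quasi-likelihood adjusted p = 0.696), and 0.27 (SE 0.201) without replicate 3.

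Cdkn1c (chr7:143458339-143461050, minus strand), an inhibitor of cyclin-dependent kinases that is read from the maternal allele, had 100.1, 117 and 263 CPM in Bahd1-KO and 83.0, 78.1 and 103 CPM in Bahd1-WT. Bahd1-KO replicate 1 overlapped the highest Bahd1-WT embryo. Its log2 fold change was 0.86 (SE 0.402, edgeR quasi-likelihood adjusted p = 0.696), and 0.29 (SE 0.210) without replicate 3. Dlk1 (chr12:109452823-109463336, plus strand), a transmembrane ligand of the Notch family, had 13.6, 23.5 and 151 CPM in Bahd1-KO and 15.5, 23.4 and 27.5 CPM in Bahd1-WT. Both replicates 1 were lowest, and the genotypes overlapped apart from replicate 3.

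Rasgrf1, an exchange factor that activates RAS, had 20.4, 18.7 and 131 CPM in Bahd1-KO and 26.9, 23.7 and 15.3 CPM in Bahd1-WT. Impact, an inhibitor of the stress kinase GCN2, had 52.1, 48.9 and 125 CPM against 58.3, 42.9 and 42.5 CPM. For both genes the first 2 Bahd1-KO embryos lay within the Bahd1-WT range. Phlda2 and Slc22a18 had their highest CPM in replicate 3 as well, from 15 and 25 counts, at levels below 1 CPM in every embryo.

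At the Igf2r-Airn locus both neighbours were high in Bahd1-KO replicate 3. Igf2r (chr17:12682406-12769664, minus strand), the receptor that clears IGF2 and is read from the maternal allele, had 61.1, 60.7 and 256 CPM in Bahd1-KO and 60.0, 82.0 and 70.8 CPM in Bahd1-WT. Airn (chr17:12741311-12860136, plus strand), the paternally read antisense RNA that silences Igf2r in cis, had 2.18, 1.47 and 18.3 CPM in Bahd1-KO and 1.63, 1.62 and 1.13 CPM in Bahd1-WT. Bahd1-KO replicate 3 was the highest embryo for both genes, 3.83-fold above the mean of the others for Igf2r and 11.4-fold for Airn. For Airn the log2 fold change was 2.32 (SE 0.961, edgeR quasi-likelihood adjusted p = 0.696), and 0.30 (SE 0.318) without replicate 3. That of Igf2r was 0.83 (SE 0.583) with and -0.23 (SE 0.210) without replicate 3, a change of sign. Airn and Igf2r overlap on opposite strands without sharing exon bases. The strand setting given for the counting is not the usual one for the stranded kit named, so whether the levels of Airn, Kcnq1ot1, Mest and Copg2 hold reads of the opposite strand was not tested.

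Igf2 itself, the growth factor cleared by Igf2r, had 11.3, 14.4 and 58.8 CPM in Bahd1-KO and 13.3, 19 and 12.7 CPM in Bahd1-WT, and H19, its reciprocally imprinted neighbour, had 209, 307 and 2907 CPM against 237, 286 and 359.8 CPM. Both were high in Bahd1-KO replicate 3 and overlapped otherwise.

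Kcnq1ot1 (chr7:143203458-143296549, minus strand), the paternally read antisense RNA that silences Cdkn1c and its neighbours in cis, had 40.7, 22.6 and 104 CPM in Bahd1-KO and 29.1, 23.0 and 16.4 CPM in Bahd1-WT. Bahd1-KO replicate 2 lay within the Bahd1-WT range and the other Bahd1-KO embryos above it. The log2 fold change was 1.29 (SE 0.561, edgeR quasi-likelihood adjusted p = 0.696), and 0.45 (SE 0.331) without replicate 3.

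Nnat, Magel2, Ndn and Mkrn3 were among the genes lower in Bahd1-KO replicate 3. Nnat (chr2:157560078-157562522, plus strand) had 1957, 2725 and 158 CPM in Bahd1-KO and 2642, 2721 and 3085 CPM in Bahd1-WT. Bahd1-KO replicate 2 lay inside the Bahd1-WT range, replicate 1 below it, and replicate 3 was 16.6-fold below the mean of the other 5. The log2 fold change was -0.80 (SE 0.830, edgeR quasi-likelihood adjusted p = 0.748), and -0.27 (SE 0.222) without replicate 3.

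The paternally read genes of the Snrpn-Ube3a locus differed in how low they were in this embryo. Magel2 (chr7:62377010-62381640, plus strand), a MAGE family protein that acts in the hypothalamus, had 16.1, 24.9 and 0.760 CPM in Bahd1-KO and 17.6, 26.0 and 27.2 CPM in Bahd1-WT. Ndn (chr7:62346569-62350262, plus strand) had 227, 343 and 33.2 CPM against 273, 322 and 374 CPM. Mkrn3, a makorin RING finger protein that restrains puberty, had 13.2, 15.5 and 1.39 CPM against 13.7, 11.8 and 13.7 CPM. In each of the 3 genes, Bahd1-KO replicate 3 was the lowest embryo by far, by 29.4-fold for Magel2, 9.27-fold for Ndn and 9.76-fold for Mkrn3 against the mean of the others, and Bahd1-KO replicate 1 was the next lowest for Magel2 and Ndn.

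Snrpn, from the same locus, was 1.97-fold lower in that embryo, with 275, 309 and 142 CPM in Bahd1-KO and 306, 238 and 270.4 CPM in Bahd1-WT. Ube3a, the ubiquitin ligase that neurons read from the maternal allele, had 449, 296 and 295 CPM in Bahd1-KO and 433, 258 and 235 CPM in Bahd1-WT. For Ube3a, both replicates 1 were high and replicate 3 was not apart from the others. None of these 5 genes passed the adjusted test, and their log2 fold changes without replicate 3 lay between -0.21 (Magel2) and 0.25 (Ube3a).

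Further genes that were at least 2-fold lower in Bahd1-KO replicate 3 came from several loci. Inpp5f had 658, 603 and 75.9 CPM in Bahd1-KO and 727, 468 and 493 CPM in Bahd1-WT. Calcr, the calcitonin receptor, had 9.89, 12.3 and 0.853 CPM against 12.1, 8.91 and 8.61 CPM, and Zdbf2, a zinc finger protein, had 215, 149.8 and 57.5 CPM against 230, 152 and 126 CPM. In these 3 genes the first 2 Bahd1-KO embryos lay within the Bahd1-WT range or, for Calcr replicate 2, just above it. Dio3, the deiodinase that inactivates thyroid hormone, had 97, 268 and 21 counts among the Bahd1-KO embryos against 185, 259 and 357 counts among the Bahd1-WT embryos. Its CPM in replicate 3 was 6.71-fold below the mean of the others, a value that rests on 21 counts. Asb4, an ankyrin repeat protein of the hypothalamus, was 3.56-fold lower in replicate 3 than the mean of the others.

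Neighbours that share a locus were compared by the ratio of their raw counts within each embryo, which does not depend on library scaling. None of 16 ratios separated the genotypes, with or without Bahd1-KO replicate 3. At the Peg3 locus, Usp29, a ubiquitin protease, had 0.551, 0.502 and 0.116 counts per count of Peg3, a zinc finger transcription factor, among the Bahd1-KO embryos, against 0.508, 0.427 and 0.444 among the Bahd1-WT embryos. The ratio was thus 4.18-fold lower in replicate 3, although both genes are paternally read and their promoter windows, shown above, overlap. Peg3 itself had 384, 346 and 546 CPM in Bahd1-KO and 443, 393 and 301 CPM in Bahd1-WT, and Usp29 had 211, 174 and 63.6 CPM against 225, 168 and 134 CPM. The third gene of the locus, the zinc finger gene Zim1, had 65.0, 55.5 and 50.2 CPM against 75.9, 56.5 and 37.6 CPM, and did not set replicate 3 apart.

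Other neighbours parted in the same embryo. Peg10, a retrotransposon-derived protein, gave 8.02 to 11.5 counts per count of Sgce, the epsilon-sarcoglycan gene next to it, in 5 embryos and 1.75 in Bahd1-KO replicate 3. Copg2, a vesicle coat protein, gave 0.384 to 0.447 counts per count of Mest in 5 embryos and 0.0684 in replicate 3. Copg2 levels were 66.1 CPM in that embryo and 65.8 to 86.4 CPM in the others, so the ratio moved with Mest. The 3' ends of Mest and Copg2 share 912 exon bases on opposite strands, and reads there are told apart only by strand. Nnat gave 15.1 to 19.1 counts per count of Blcap in 5 embryos and 5.01 in replicate 3, and Dlk1 gave 0.00877 to 0.0294 counts per count of Meg3 in 5 embryos and 0.199 in replicate 3.

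Of the 16 ratios, 12 had Bahd1-KO replicate 3 outside the range of the other 5 embryos and 4 inside it. The same share over pairs of other genes was not computed. For single genes, this embryo was above the other 5 in 38.1% and below them in 36.0% of all genes tested. The count of 12 is therefore not read as particular to imprinted loci. Besides those above, it lay outside for Ndn per Snrpn (0.234 against 0.827 to 1.38), Magel2 per Ndn (0.0229 against 0.0646 to 0.0806), Airn per Igf2r (0.0715 against 0.0160 to 0.0357), Mirg per Meg3 (0.0261 against 0.00782 to 0.0179), Zim1 per Peg3 (0.0920 against 0.125 to 0.171), Ube3a per Snrpn (2.08 against 0.870 to 1.63) and Zrsr1 per Commd1 (4.36 against 2.08 to 3.32).

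The 4 ratios that kept within the range of the others were Rian per Meg3, Mkrn3 per Ndn, Cdkn1c per Kcnq1ot1 and Peg13 per Trappc9. Rian, the host transcript of small nucleolar RNAs at the Dlk1-Dio3 locus, gave 0.421 to 0.595 counts per count of Meg3 in 5 embryos and 0.556 in replicate 3. Mkrn3 gave 0.0366 to 0.0581 counts per count of Ndn in 5 embryos and 0.0419 in replicate 3. The levels of Meg3 were 1547, 1361 and 758 CPM in Bahd1-KO and 1306, 1405 and 934 CPM in Bahd1-WT. Bahd1-KO replicate 3 was thus the lowest embryo for Meg3, by 1.73-fold against the mean of the others, as it was for Rian by 1.60-fold. Mirg, a microRNA host transcript of the same locus, had 12.1, 16.8 and 19.8 CPM in Bahd1-KO and 12.9, 15.1 and 16.8 CPM in Bahd1-WT.

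**Figure D5:**
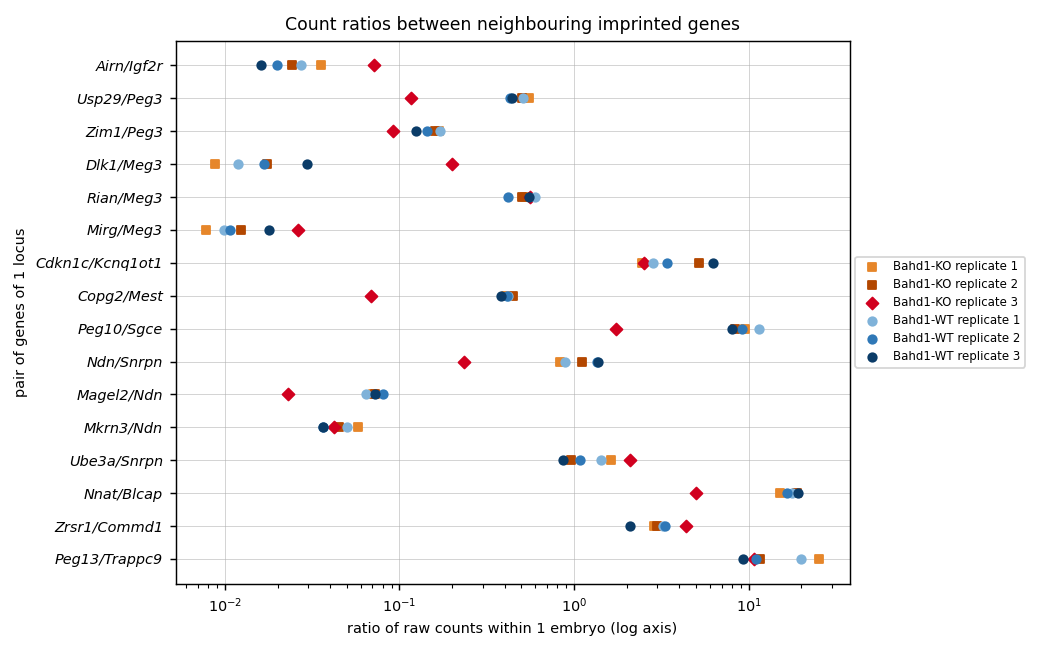
Ratio of raw counts between 2 imprinted genes of the same locus within each embryo (log axis), with 1 point per embryo for 16 pairs. Bahd1-KO replicate 3 (red diamonds) is apart for Usp29/Peg3 (0.116), Copg2/Mest (0.0684), Peg10/Sgce (1.75) and Dlk1/Meg3 (0.199) and lies among the other embryos for Rian/Meg3 (0.556) and Mkrn3/Ndn (0.0419).

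The remaining members had overlapping genotypes. Gnas had 646, 1064 and 862 CPM in Bahd1-KO and 860.3, 992 and 1125 CPM in Bahd1-WT, and its table entry sums several transcripts with different imprinting. The scaffold protein gene Ppp1r9a had 266, 182 and 227 CPM against 243, 207 and 162 CPM. Commd1, a protein of copper trafficking, had 11.8, 12.8 and 13.8 CPM against 12.6, 10.8 and 16.0 CPM, and Zrsr1, a splicing protein inside its intron, 34.1, 38.2 and 60.1 CPM against 40.7, 35.7 and 33.2 CPM. Both replicates 1 were the lowest for Gnas, and Zrsr1 was highest in Bahd1-KO replicate 3. For Copg2, Gnas, Zim1, Ube3a, Peg3, Mirg, Sgce, Ppp1r9a and Commd1, whether Bahd1-KO replicate 3 lay above or below the mean of the other embryos depended on the scaling of the libraries.

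A second pattern concerned replicates 1 of both genotypes. In 14 of 40 imprinted genes both replicates 1 lay above the 3 embryos Bahd1-KO replicate 2 and Bahd1-WT replicates 2 and 3 (background 24.9%), and in 9 of 40 below them (background 26.7%). Ube3a, Usp29, Zdbf2 and Inpp5f were examples of the former, and Ndn, Magel2, Nnat and Dlk1 of the latter. The labels give no batch for these embryos.

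The factors that write, read and keep imprints were examined as a further list. Of 32 such genes 28 were tested, and 0 were called by the edgeR quasi-likelihood test, by DESeq2 or by limma-voom, with 0 at an unadjusted p below 0.05 in edgeR (background 4.67% of all genes). There were 11 higher and 17 lower values in Bahd1-KO (median log2 fold change -0.10), and 15 higher and 13 lower without replicate 3 (median 0.02). The largest differences were those of Mbd3, a methyl-CpG binding domain protein, at -1.19 (SE 0.690), Ehmt2, a histone H3 lysine 9 methyltransferase, at -0.85 (SE 0.499), Trim28, the corepressor recruited by ZFP57, at -0.84 (SE 0.458), and Hells, a chromatin remodeller, at 0.74 (SE 0.365), all on the log2 scale with overlapping genotypes. Trim28 had 107, 197 and 65.7 CPM in Bahd1-KO and 141, 226 and 293 CPM in Bahd1-WT, with low values in both replicates 1 and in Bahd1-KO replicate 3. Zfp57, which binds methylated imprinting control regions, had 237, 179.9 and 28.9 CPM against 185, 184 and 186 CPM, so that Bahd1-KO replicate 3 alone was low among the 6 embryos.

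A list of 43 other imprinted genes, outside the 40, gave a similar picture. Gene counts do not show whether these genes are imprinted in the brain, and Dcn is also among the connective tissue markers. Of 41 tested, 0 were called by edgeR, DESeq2 or limma-voom, and 2 had an unadjusted p below 0.05 in edgeR (background 4.67% of all genes). DESeq2 gave no p value for H19, Pon3 and Slc38a4 and no adjusted p for Zim3, so it could not have called these genes. The values were higher in Bahd1-KO for 19 and lower for 22 (median log2 fold change -0.03), and without replicate 3 for 16 and 25 (median -0.12). Among genes with a mean of at least 1 CPM, the largest differences were those of Pon3, a paraoxonase, at 2.49 (SE 1.02), Slc38a4, an amino acid transporter, at 2.05 (SE 0.863), H19 at 1.96 (SE 0.963) and Igf2 at 0.91 (SE 0.635) on the log2 scale, and in each of them Bahd1-KO replicate 3 was the highest embryo. Without it these were 0.20, 0.22, -0.19 and -0.23.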

How the data were processed

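Raw counts per gene of 6 whole E16.5 brains, 3 Bahd1-KO and 3 Bahd1-WT, were analysed, grouped by the genotype given in the labels. Per the study's methods and processing notes, the authors prepared polyA libraries, trimmed reads with cutadapt 1.11, aligned them to GRCm38 with STAR 2.5.0a and counted exon reads per Ensembl gene by strand with featureCounts 1.4.6-p3; TopHat2 is also named as aligner, and which was used for these embryos is not settled. The deposited values are whole-number counts, 1 column per embryo, with no filter; every row named a gene. Reads shared by near-identical or overlapping genes depend on that counting.

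Genes were matched by Ensembl identifier to GENCODE M21 (53620 of 53801), which also gave coordinates and exon lengths. Genes whose counts summed to 10 or more were tested for genotype with the edgeR 4.0.16 quasi-likelihood test (TMM factors, two-sided, Benjamini-Hochberg over 24739 genes, threshold 0.05) in R 4.3.3. CPM used TMM-scaled library sizes and RPKM divided CPM by exon length. DESeq2 1.42.0, limma 3.58.1 (voom with sample weights), other scalings and filters, a replicate block and leaving out each embryo in turn were alternatives. The scripts were tested on simulated data. Named were Bahd1, all 40 members and, from every other list, the 4 genes with the largest absolute log2 fold change at a mean of at least 1 CPM, with Zfp57 added after its values were seen. The members and lists were chosen with earlier results of these data known. The labels call the 6 samples biological replicates. Deviations of same-numbered embryos from their group means correlated at 0.26, 0.34 and -0.12 for numbers 1, 2 and 3, not all above 0.1, so the numbers were not taken as pairs. Motif and CG counts came from RefSeq promoter windows of GRCm38.p6.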

Additional observations from a re-analysis of the deposited data

How the results depend on the processing

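The 0 calls among the 40 imprinted genes, the 28 imprint maintenance factors and the 41 further imprinted genes were unchanged under all 17 alternatives (lowest adjusted p of a member, 0.235). With all 6 embryos, DESeq2 gave no adjusted p for H19, Pon3, Slc38a4 and Zim3 of the further list, so it could not have called them. The number of genes called over the whole table was 1, and it was 8 with DESeq2, 6 with limma-voom with sample weights, 0 with a replicate block, 0 with ribosomal, mitochondrial and untailed RNA left out, 11 with DESeq2 without Bahd1-KO replicate 3, 16 with a replicate block without that embryo, and 0 to 4 when each embryo was left out. Bahd1 had a log2 fold change of -8.49 with the block (adjusted p = 0.229), -8.41 with those RNAs left out (adjusted p = 0.0542), and -8.78 to -8.01 when each embryo was left out; it lost its call in 5 of these 6 fits and kept it without Bahd1-KO replicate 3. The block changed no call among the imprinted genes. For these edgeR fits fewer embryos leave fewer degrees of freedom.

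The median log2 fold change of the imprinted genes was 0.11 with upper-quartile factors and -0.12 with total counts, and -0.06 to 0.04 when each embryo was left out. That of the maternally expressed genes was 0.21, -0.10 and, with voom, 0.19, and -0.04 to 0.13 when each embryo was left out; that of the paternally expressed genes was 0.02 with voom and -0.34 to -0.02 when each embryo was left out. The number of imprinted genes with separated genotypes was 3 to 12 when each embryo was left out, beside 9.30% to 36.9% of all genes in the same sets of 5 embryos. It could not fall below 3, because genotypes separated with all 6 embryos stay separated with 5.

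Of 679 fold changes of single imprinted genes under the alternatives, 586 kept their sign and 93 reversed it, with 0 called, and 16 of the 40 genes never reversed. The log2 fold changes that reversed were, without a filter, Zim1 -0.01 and Meg3 -0.003; with edgeR's own filter, Commd1 0.01; with upper-quartile factors, Commd1 0.08; and with total counts, Peg3 -0.07, Zim1 -0.14, Meg3 -0.10, Rian -0.08, Mirg -0.11, Slc22a18 -0.12, Copg2 -0.06, Sgce -0.09 and Ppp1r9a -0.04. With voom they were Igf2r -0.21, Usp29 0.17, Dlk1 -0.29, Mirg -0.11, Phlda2 -0.12, Slc22a18 -0.42, Asb4 0.20, Calcr 0.06, Mkrn3 0.003, Snrpn 0.13, Zdbf2 0.20 and Inpp5f 0.18. With the replicate block they were Meg3 -0.03 and Rian -0.002, and with ribosomal, mitochondrial and untailed RNA left out, Zim1 -0.01 and Meg3 -0.01. Without Bahd1-KO replicate 3 they were, with DESeq2, Igf2r -0.23, Peg3 -0.07, Usp29 0.12, Dlk1 -0.26, Mirg -0.06, Slc22a18 -0.46, Sgce -0.005, Asb4 0.13, Calcr 0.16, Mkrn3 0.12, Snrpn 0.09, Zrsr1 -0.03, Rasgrf1 -0.18, Zdbf2 0.09 and Inpp5f 0.15. With the replicate block without that embryo they were Igf2r -0.22, Peg3 -0.21, Zim1 -0.14, Dlk1 -0.10, Phlda2 -0.07, Ppp1r9a -0.05, Asb4 0.14, Calcr 0.07, Mkrn3 0.15, Snrpn 0.10, Zrsr1 -0.10, Commd1 0.06, Impact -0.005, Rasgrf1 -0.39 and Inpp5f 0.09. When each embryo was left out, the genes that reversed in at least 1 fit ranged over Igf2r -0.23 to 1.16, Peg3 -0.07 to 0.27, Usp29 -0.56 to 0.12, Zim1 -0.22 to 0.24, Meg3 -0.20 to 0.24, Dlk1 -0.26 to 1.98, Rian -0.18 to 0.24, Mirg -0.05 to 0.29, Slc22a18 -0.44 to 0.81, Copg2 -0.04 to 0.15, Sgce -0.002 to 0.18, Ppp1r9a -0.01 to 0.25, Asb4 -0.56 to 0.13, Calcr -0.91 to 0.16, Mkrn3 -0.87 to 0.12, Snrpn -0.41 to 0.10, Ube3a -0.06 to 0.45, Zrsr1 -0.03 to 0.43, Commd1 -0.18 to 0.12, Rasgrf1 -0.18 to 1.77, Zdbf2 -0.71 to 0.09 and Inpp5f -0.73 to 0.15. The cause of these reversals was not tested.

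Gene totals of 3 embryos per genotype do not show allele use. The standard errors of the 40 genes (median 0.48 on the log2 scale) limit what could be seen, and for Phlda2, Slc22a18, Rtl1 and Dio3 the counts limit it too.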
